A study of Mus musculus with 6 samples.

Results

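Col1a1-high, Thbs2-positive cells made up 1613 of the 19180 filtered cells in the Day 10 digits in a dish (DID) cultures. They were 1042 of 9639 cells in replicate A (10.8%, 95% exact binomial interval 10.2 to 11.4%) and 571 of 9541 cells in replicate B (5.98%, interval 5.52 to 6.48%). The intervals cover counting error only. The cells were chosen by 5 transcripts, counted as unique molecular identifiers (UMIs), each of which marks 1 captured transcript. Col1a1 had to hold at least 0.8% of a cell's UMIs and Col2a1 less than 0.5%, with at least 1 Thbs2 UMI, fewer than 3 Tnmd UMIs and fewer than 5 Prg4 UMIs. Before that, barcodes with at least 3000 UMIs, at most 7500 detected genes and at most 40% of UMIs from the mitochondrially encoded (mt-) genes were kept. Of 9639 cells in replicate A, 1569 met the Col1a1 limit, 1297 also the Col2a1 limit, 1103 the Thbs2 limit, 1066 the Tnmd limit and 1042 the Prg4 limit. In replicate B the same steps left 873, 769, 602, 587 and 571 cells. A Thbs2 UMI was also common outside the members. It was found in 54.8% and 49.2% of other cells matched to the members in mitochondrial share, and in 35.3% and 31.2% of immune cells, which had a median of 21004 and 22173 UMIs. At 3000 UMIs per cell the shares were 79.0% and 77.1% in members, 35.0% and 30.5% in matched cells and 9.33% and 8.99% in immune cells. The share in members is raised by the choice itself, since each member had to have a Thbs2 UMI.

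All libraries came from wild type CD-1 mouse embryos at E11.5. Distal forelimb mesenchyme was dissected from pooled embryos, dissociated and seeded as dense cultures, which were sampled at Day 2, Day 7 and Day 10 with 2 independent cultures, replicates A and B, at each time point. No treatment or mutation was compared. The 6 droplet libraries (10x Genomics 3′ Gene Expression) held 57512 filtered cells and between 230286310 and 332572927 UMIs each. Only the Day 10 libraries were used to choose the cells, and the same limits were then applied to the Day 7 and Day 2 libraries.

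The perichondrium is the fibrous sheath around cartilage. Its cells lay down type I collagen, fibrillin and elastic fibres, and in long bones its inner layer gives rise to the osteoblasts of the first bone collar, which switch on Runx2, Sp7 and then genes of the mineralising matrix such as Ibsp. Fibrillins assemble into microfibrils, which carry elastin and hold latent TGF-beta and BMP ligands in the matrix. Thbs2 encodes a matricellular thrombospondin of collagen-rich connective tissue. Tnmd marks tendon, Prg4 the joint surface and Col2a1 cartilage, and the limits on these transcripts set aside cells with many of their UMIs. The Tnmd and Prg4 limits are counts and not shares of UMIs. A shallow cell thus passes them more readily than a deep one with the same share.

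At Day 7 the same limits held 350 of 9666 cells in replicate A (3.62%) and 161 of 9880 in replicate B (1.63%). At Day 2 they held 6 of 8978 cells (0.0668%) and 1 of 9808 (0.0102%). Both Day 10 shares were above both Day 7 shares, and both Day 7 shares above both Day 2 shares. No test was made of this order, since the limits had been chosen on the Day 10 libraries. Replicate A had the larger share at each time point. The letters mark separate cultures, and nothing in the labels ties a letter to 1 culture followed over time. The Day 10 libraries shared 26 cell barcodes among their filtered cells, and 5 members of replicate A and 1 of replicate B carried such a barcode. No doublet caller was run.

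The members were shallow and rich in mitochondrial transcripts. Their median was 6016 UMIs per cell in replicate A and 6284 in replicate B, against 26165 and 25340 in all filtered cells of these libraries. Transcripts of the 13 mt- genes took a median of 23.9% and 20.7% of the members' UMIs, against 3.88% and 3.33% in all filtered cells. In replicate A the members made up 2.02% of the cells with up to 5% mitochondrial UMIs, 10.1% of those from 5 to 10%, 28.3% from 10 to 20%, 33.5% from 20 to 30% and 39.8% from 30 to 40%. In replicate B the shares over the same bands were 1.37%, 7.28%, 21.8%, 16.8% and 17.9%. A high mitochondrial share with few UMIs is often seen in damaged cells, and the part of cell damage in the results was not tested. For that reason the main comparison set the members beside other cells of the same libraries drawn to the same distribution of mitochondrial share, at Day 10 1452 cells in replicate A and 1663 in replicate B. These matched cells had medians of 5859 and 5350 UMIs, close to those of the members. Col2a1 took a median of 0.658% and 0.393% of their UMIs. In all filtered cells that were not members it took 0.0634% and 0.0764%. The matched cells were thus richer in this cartilage transcript than the cultures at large, and differences from them are not differences from the whole culture.

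**Figure D1:**
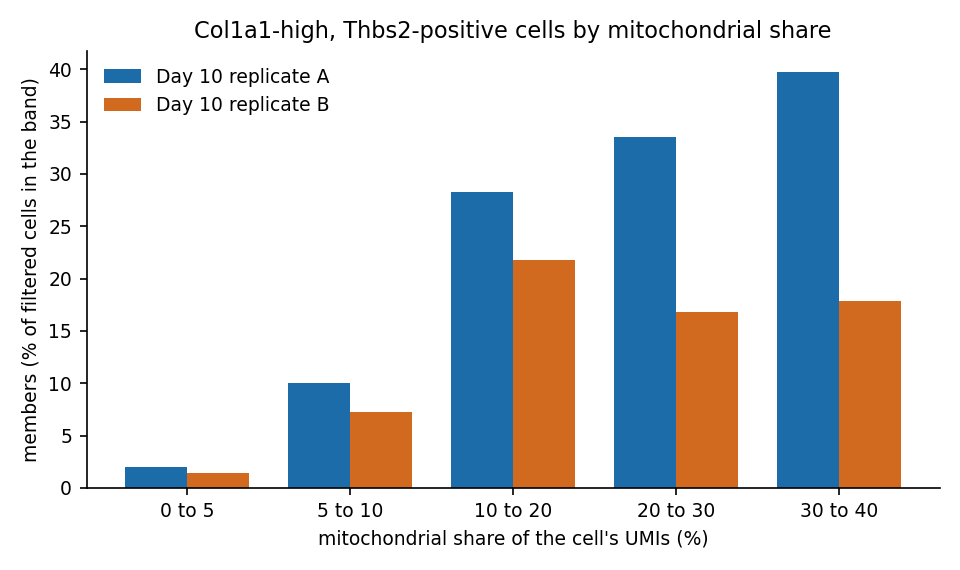
Share of filtered Day 10 cells (percent) that were members, on an axis from 0, by band of mitochondrial share (percent of UMIs), with 1 bar each for replicates A and B. The share was 2.02% and 1.37% in the lowest band and 39.8% and 17.9% in the highest.

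The transcripts used by the limits are given as a description. Col1a1 took a median of 1.37% of the members' UMIs in replicate A and 1.25% in replicate B, and its highest value was 4.73%. Col2a1 took a median of 0.106% and 0.0949%. The median Thbs2 count was 3 UMIs in each replicate, with maxima of 54 and 60. No Tnmd UMI was found in 89.9% and 90.9% of the members, and no Prg4 UMI in 91.7% and 93.3%. In the matched cells, of like depth, these shares were 92.2% and 94.1% for Tnmd and 92.3% and 94.4% for Prg4. Cells on either side of the Col1a1 limit were much alike in Fbn2, at 338 CPM (UMIs scaled to a common library total) in the 114 cells just inside and 346 in the 157 cells just outside in replicate A, and at 404 and 340 CPM in the 86 and 101 such cells of replicate B. The 226 members of replicate A with exactly 1 Thbs2 UMI had 542 CPM of Fbn2, and the 188 cells with none that met every other limit had 463 CPM, where replicate B had 477 and 333 CPM in 140 and 165 such cells. Across the Col2a1 limit Fbn2 was lower inside than outside, at 725 against 1026 CPM in replicate A and 566 against 1175 in replicate B, over 17 to 44 cells a side. Ibsp, the bone sialoprotein gene, differed more. It was at 6472 CPM just inside and 1934 just outside the Col1a1 limit in replicate A, and at 6627 and 3080 in replicate B. Across the Col2a1 limit it was at 5860 inside and 410.4 outside in replicate A and at 3460 and 55.96 in replicate B. In sets of 17 to 44 cells, 1 or a few deep cells rich in Ibsp, described below, can set such a level. Across the Thbs2 limit it was lower inside, at 6886 against 19064 and 18340 against 31408 CPM. The members are the cells past these limits, and no clustering was run.

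The proposed name for these cells was perichondrium-like, after Col1a1, Thbs2 and Fbn2. Of these markers and Fbn1, only Fbn2 and Fbn1 were not used by the limits, and both were higher in the members. The genes that led the members by fold were, however, Ifitm5 and Ibsp of bone-forming cells. Most Ibsp UMIs lay in 72 of the 1613 members, and the other 1541, with Fbn2 at 774 and 773 CPM, had an Ifitm5 UMI in 2.18% and 2.63% of cells. The members' median depth was less than 1 in 3 of that of their libraries. The cells are called here by the limits that chose them. Of other cell types, immune transcripts (at least 3 UMIs over Tyrobp, Fcer1g, C1qa, C1qb and C1qc) were seen in 3 members of replicate A (0.288%) and 2 of replicate B (0.350%), against 0.620% and 1.38% of the matched cells described above, and skeletal muscle transcripts in 0 and 1 members.

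Members and matched cells were compared on UMIs summed per library and class, with the library as a block, by the quasi-likelihood test of edgeR with Benjamini-Hochberg adjustment over all genes tested. Values are CPM of these sums, differences are log2 fold changes of members against matched cells with their standard errors, and n = 2 libraries at each time point. The spread was estimated over both time points and drew on all genes, so that a standard error is not the spread between 2 cultures. The 5 chosen transcripts and the mt- genes were left out of the tests. Of 13789 genes, 2001 were higher in the members at Day 10 (14.5%) and 2140 lower (15.5%), at adjusted p under 0.05. At Day 7, in libraries that did not take part in the choice, 1714 were higher (12.4%) and 2499 lower (18.1%). Genes whose levels go with the 5 chosen transcripts from cell to cell differ between such sets by the way the cells were chosen, and the tests do not remove this at either time point.

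Both fibrillin genes were higher in the members. Fbn2, which encodes a fibrillin of developing tissues, was at 663 CPM in replicate A and 602 in replicate B, against 352 and 294 CPM in the matched cells. The difference was 0.97 ± 0.11 (SE, adjusted p = 2.43e-06, edgeR), and the members of each library lay above the matched cells of both. Fbn1, which encodes the fibrillin of most adult microfibrils, was at 320 and 261 CPM against 173 and 148, a difference of 0.85 ± 0.08 (adjusted p = 8.54e-07). At Day 7 Fbn2 was at 1519 and 1158 CPM against 665 and 409 (1.34), and Fbn1 at 540 and 374 against 224 and 135 (1.37). The groups did not overlap for either gene at either time point. The change of the difference between days did not pass for Fbn2 (-0.37, adjusted p = 0.189) and passed for Fbn1 (-0.52, adjusted p = 0.0179). In members and other cells with at most 10% mitochondrial UMIs, the Day 10 difference was 0.63 for Fbn2 and 0.27 for Fbn1, and that of Fbn1 no longer passed (adjusted p = 0.227). Without cells in which Ibsp held at least 0.5% of UMIs, which are described with the bone genes, the log2 ratios of unscaled CPM at this share were 1.16 for Fbn2 and 0.81 for Fbn1, against 0.67 and 0.31 with them.

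Microfibril and elastic fibre genes as a list, which holds both fibrillins, differed in both directions. Of 20 tested, 12 were higher and 3 lower at Day 10, with a median difference of 0.41, where the median over all genes tested was 0.0054. Eln, the elastin gene, was at 408 and 346 CPM in the members against 174 and 158 (1.18). Ltbp2, a binding partner of the fibrillins, was at 145 and 136 against 70.0 and 61.7 (1.09, and 0.43 at a mitochondrial share of at most 10%), and Lox, the enzyme that crosslinks elastin and collagen, at 644 and 570 against 312 and 242 (1.14). For each of these genes both member sums were above both matched sums. Fbln7, which encodes a fibulin, was lower (-2.62). The median of this list was 0.93 at Day 7, with 13 of 20 genes higher and 1 lower.

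Collagen genes outside the cartilage list, fibrillar and minor ones, were higher nearly throughout. Of 19 tested, 17 were higher at Day 10, 1 was lower and 1 did not pass, with a median of 0.83. Col1a2, the partner chain of the Col1a1 product, was at 11293 and 11458 CPM in the members against 5086 and 4075 (1.32, adjusted p = 6.92e-06). Col1a2 is usually made together with Col1a1, so that its level is tied to the choice of cells. Col3a1, of pliable connective tissue, was at 2227 and 1775 CPM against 985 and 718 (1.24). Col5a1 and Col5a2, whose products set the diameter of type I fibrils, differed by 1.15 and 1.14. Col14a1, a fibril-associated collagen, was at 124 and 108 CPM against 79.3 and 59.6. Col16a1 was the collagen gene that was lower (-0.31). It did not pass without either replicate (adjusted p = 0.155 without A and 0.137 without B), and its sign turned at a mitochondrial share of at most 10% (0.0637). Col18a1, of basement membranes, did not pass (-0.35). At Day 7, 15 of the 19 were higher and none lower. Within replicate A, members with Col1a1 from 0.8 to 1.2% of their UMIs had 438 CPM of Fbn2, those from 1.2 to 2% had 814 and those at 2% and over had 1203, and in replicate B the levels were 498, 695 and 963 CPM. The bands were not matched on depth or mitochondrial share. Over the same bands Ibsp was at 5160, 2496 and 576 CPM in replicate A and at 6522, 12310 and 17208 in replicate B.

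The genes that process collagen did not share this pattern. Of 31 tested, 11 were higher and 5 lower, with a median of 0.08. Lox, given above, and Bmp1, the procollagen C-proteinase (0.46), were higher, that of Bmp1 not passing without replicate B (adjusted p = 0.0681), while Plod2, a lysyl hydroxylase, was lower (-0.72) and Pcolce2 (-1.98) and Loxl4 (-1.89) were lower as well. Of 22 genes of secretory load and the unfolded protein response, 2 were higher and 3 lower, with a median of -0.01. The summed level of the collagen list outside cartilage, without Col1a1, was 19164 and 18469 CPM in the members against 9308 and 7420. Col2a1, which the limits kept low in the members, was at 1380 and 1272 CPM against 14078 and 11169. These Col2a1 levels are means of single cells and not sums, and their direction follows from the choice of cells. The total collagen load was not compared.

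**Figure D2:**
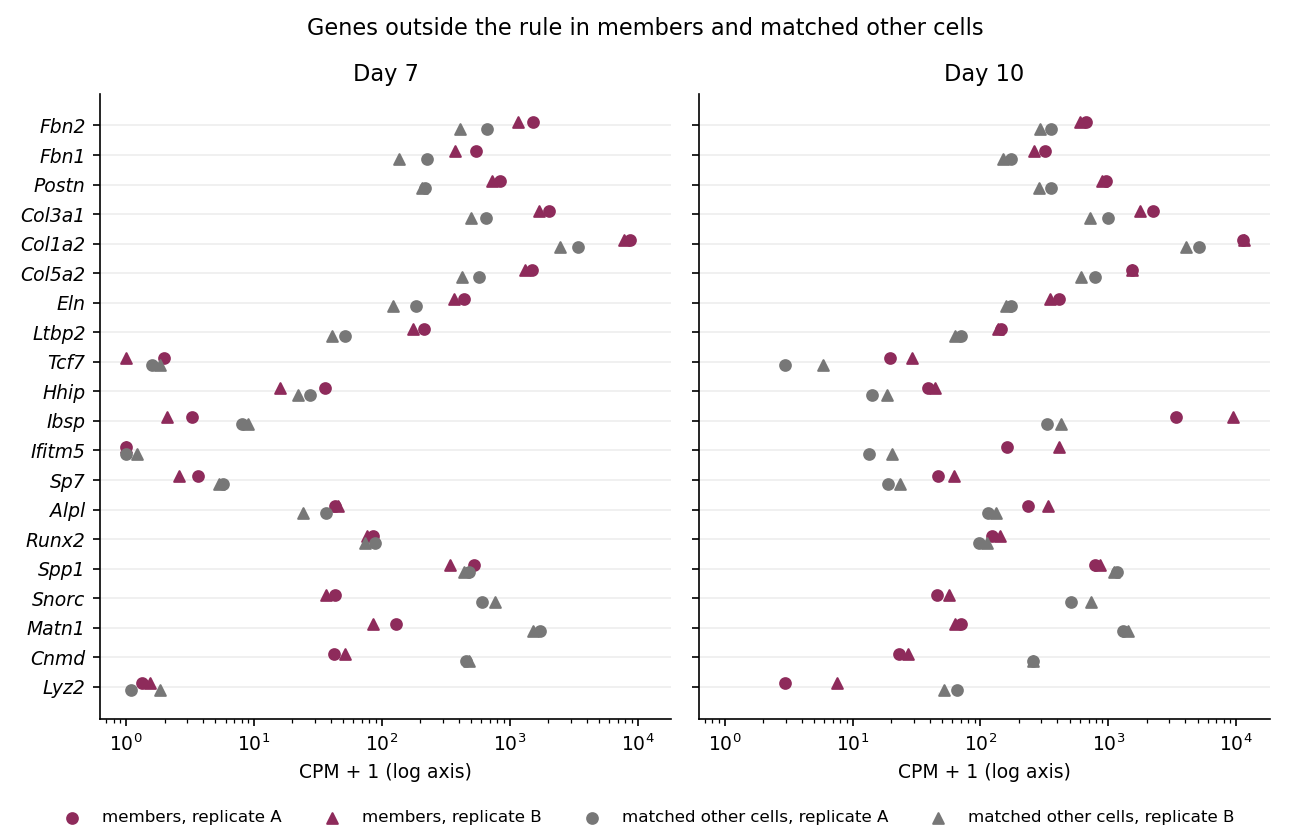
Levels of selected genes (CPM + 1, log axis) at Day 7 and Day 10 in the members (purple) and in other cells matched on mitochondrial share (grey), with 1 point per library, replicate A as circles and replicate B as triangles. Fbn2 was at 663 and 602 in the Day 10 members against 352 and 294 in the matched cells.

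Of 22 matricellular genes, 11 were higher and 4 lower, with a median of 0.37. Postn, which encodes periostin of the periosteum and other dense connective tissues, was at 964 and 893 CPM in the members against 358 and 284 (1.54 ± 0.10, adjusted p = 3.16e-09). At Day 7 it was at 844 and 728 against 215 and 204 (1.90). Both member sums were far above both matched sums at each time point. Tnc, encoding a tenascin, differed by 0.79 and Ccn4, a secreted WNT target, by 0.88. Comp, a thrombospondin of cartilage and tendon, was lower, at 257 and 186 CPM against 1181 and 1153 (-2.41). Thbs4, a thrombospondin of tendon and muscle, was at 26.8 and 46.5 CPM against 27.9 and 13.6, so that its groups overlapped. Its difference of 0.79 (adjusted p = 0.0379) was -0.06 without replicate B and -0.37 at a mitochondrial share of at most 10%. Small leucine-rich proteoglycans had 4 of 14 genes higher and 5 lower, with a median of 0.06. Among them Fmod, a modifier of collagen fibrils (0.96), was higher, and Dcn (-0.77, not passing at a mitochondrial share of at most 10%, adjusted p = 0.173), Omd (-1.89) and Epyc (-2.95) were lower.

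Among genes at a mean of at least 50 CPM, those with the 3 largest differences above the matched cells at Day 10 are known from bone-forming cells. Ifitm5, which encodes a membrane protein of mineralising osteoblasts (ENSMUSG00000025489, GRCm38 chromosome 7, 140948958 to 140950291, minus strand), was at 161 CPM in the members of replicate A and 409 in those of replicate B, against 12.3 and 19.4 in the matched cells (4.10 ± 0.12, adjusted p = 6.11e-13). Ibsp, the gene of bone sialoprotein (ENSMUSG00000029306, chromosome 5, 104299171 to 104311469, plus strand), was at 3366 and 9426 CPM against 330 and 429 (3.91 ± 0.20, adjusted p = 1.53e-10). Its difference was 3.35 without replicate B and 4.45 without replicate A. Slc13a5, a citrate transporter used by mineralising cells, was at 46.3 and 85.7 against 7.49 and 11.96 (2.75 ± 0.11, adjusted p = 8.05e-12). Member sums were above matched sums in each library for these genes, and replicate B, with the smaller share of members, had the higher levels. Sp7, the osteoblast transcription factor, was at 45.3 and 61.4 CPM against 17.9 and 22.3 (1.40 ± 0.10, adjusted p = 1.07e-08). Alpl, the alkaline phosphatase of mineralisation, was at 236 and 334 against 113 and 131 (1.21), and its difference was 2.04 at a mitochondrial share of at most 10%.

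The osteoblast list had 12 of 17 genes higher and 2 lower at Day 10, with a median of 0.69, and 3 higher and 5 lower at Day 7, with a median of -0.53. Runx2, the first factor of the lineage, was higher by 0.34, and did not pass without either replicate (adjusted p = 0.0852 without A and 0.0826 without B). Spp1, the osteopontin gene, was lower (-0.47), and did not pass without replicate A (adjusted p = 0.169). Its sign turned when levels were means of single cells (0.22). Bglap (0.06) and Dmp1 (0.55), genes of late osteoblasts and osteocytes, did not pass. Tmem119, a bone-forming cell gene, was at 204 and 275 CPM against 77.6 and 69.5 (1.69), and Creb3l1, which drives collagen production in osteoblasts, at 172 and 231 against 79.2 and 63.7 (1.49). Mmp13, a collagenase of bone and late cartilage, was at 59.7 and 67.8 against 21.3 and 24.02 (1.49), and did not pass when cells were matched on UMI count too (0.55, adjusted p = 0.081).

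Few members carried most of the Ibsp transcripts. Ibsp held at least 0.5% of UMIs in 33 members of replicate A (3.17%) and 39 of replicate B (6.83%), which are 72 of the 1613 members (4.46%). This limit was set after the values had been seen, and no test was made on it. These Ibsp-rich members held 11.3% and 21.7% of the members' UMIs and 95.4% and 98.5% of their Ibsp UMIs. Such cells were not limited to the members. Of 292 filtered Day 10 cells past this limit, 220 were not members, 93 in replicate A and 127 in replicate B, and 10 and 17 of them were among the matched cells. They made up 1.08% and 1.42% of the cells that were not members and 0.689% and 1.02% of the matched cells. The Ibsp-rich members were deep and poor in mitochondrial transcripts, with medians of 34446 and 33587 UMIs and 3.15% and 2.61% mitochondrial UMIs. Ibsp-rich cells that were not members had medians of 34141 and 31211 UMIs, and the ones among the matched cells 7999 and 13016. The other 1541 members had medians of 5963 and 5898 UMIs and 24.4% and 21.7%. Since a sum weights cells by depth, a level in the summed members cannot tell many cells with a little of a transcript from a few with much of it.

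**Figure D3:**
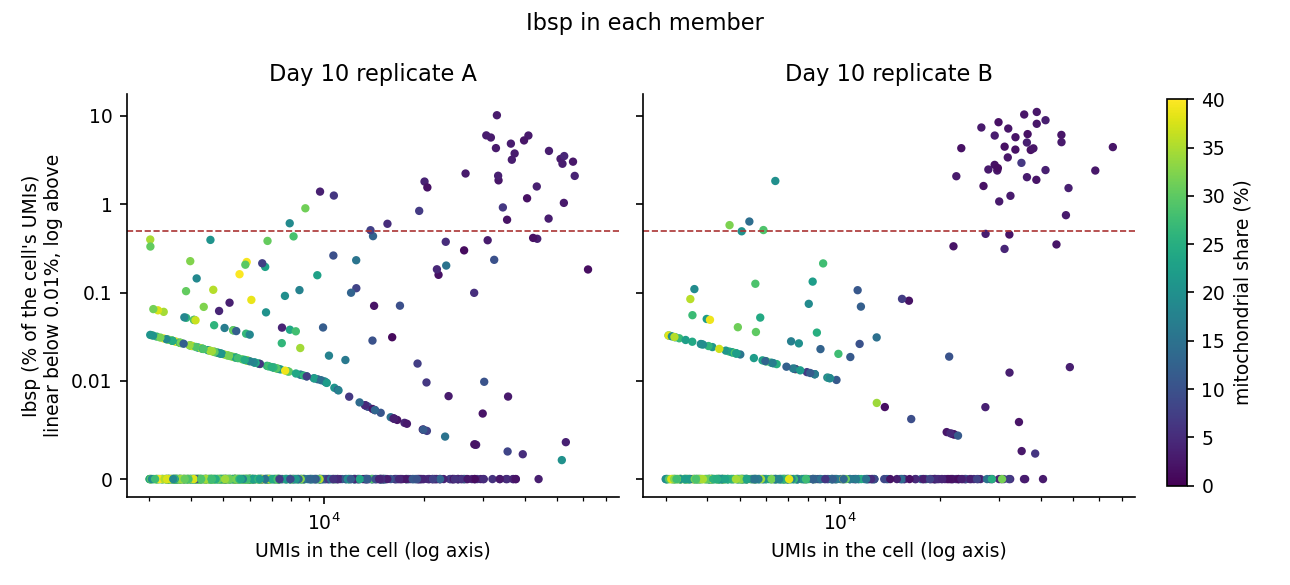
Ibsp share of each Day 10 member (percent of the cell's UMIs, linear below 0.01% and log above) against its UMI count (log axis), coloured by mitochondrial share (percent), for replicates A and B. The dashed line marks 0.5%, and most of the 33 and 39 members above it had many UMIs and a low mitochondrial share.

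The 2 sets of members differed in genes of several lists, matrix and bone genes among them. Their depth and mitochondrial share differed as given above, and the sets were not matched on either. Ibsp was at 29688 and 43568 CPM in the Ibsp-rich members, at 182 and 179 in the other members, and at 71.3 and 87.3 in matched cells under the same Ibsp limit. Fbn2 was at 46.9 and 33.4 CPM in the Ibsp-rich members against 774 and 773 in the other members, and at 349 and 294 in the matched cells. Fbn1 was at 23.4 and 16.3 against 374 and 334, Eln at 44.2 and 14.0 against 475 and 446, and Ltbp2 at 5.41 and 3.10 against 169 and 175. Of 20 microfibril and elastic fibre genes, all 20 were lower in the Ibsp-rich members than in the other members of both replicates. Other lists leaned the same way, with 19 of 19 FGF, 11 of 11 IGF and 28 of 30 limb transcription factor genes lower. By contrast, 8 of 10 hypertrophic cartilage genes and 12 of 22 genes of the secretory list were higher. The share over all genes was not counted for this split, so that these counts, and those of the bone list below, do not set a list apart from other genes. Postn was at 121 and 128 CPM against 1119 and 1125. Igf1, encoding a growth factor, was at 2.71 and 10.1 against 195 and 221. Col3a1 was at 597 and 377 against 2545 and 2201. Col1a2 was at 10216 and 11768 CPM against 11990 and 11626, and Col5a2 at 1578 and 1642 against 1599 and 1542. Both sets had passed the Col1a1 limit, to which the level of Col1a2 is tied. Of 19 collagen genes outside the cartilage list, 13 were lower in the Ibsp-rich members of both replicates and 4 higher.

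Of 17 osteoblast genes, 13 were higher in the Ibsp-rich members than in the other members of both replicates and 4 were lower, among them Runx2 and Spp1. Ibsp, which set the split, is 1 of the 17, so that its own direction was fixed in advance. Ifitm5 was at 1355 and 1832 CPM in the Ibsp-rich members against 16.99 and 24.5 in the other members, Sp7 at 225 and 194 against 24.7 and 26.004, and Alpl at 861 and 907 against 168 and 183. Smpd3, a sphingomyelinase needed for bone mineral, was at 1276 and 1677 against 63.9 and 106, and Sgms2, a sphingomyelin synthase, at 995 and 1002 against 32.4 and 37.4. Pth1r, the parathyroid hormone receptor gene, was at 1283 and 1538 against 128 and 131. Tcf7, a WNT pathway factor, was at 116 and 101 against 7.00 and 8.81. Runx2 was at 100 and 75.3 against 131 and 163 CPM, higher in the members without much Ibsp. Spp1 was at 149 and 674 against 907 and 925 CPM. Exactly 1 Thbs2 UMI was found in 36.4% and 28.2% of the Ibsp-rich members and in 21.2% and 24.2% of the other members.

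Set beside matched cells that were also under the Ibsp limit, the 1541 other members had larger ratios for fibrillin and smaller ones for bone genes than all members together. Both are given as log2 ratios of unscaled CPM, as the mean of both replicates. The ratio went from 1.03 to 1.27 for Fbn2, from 0.91 to 1.14 for Fbn1 and from 1.60 to 1.81 for Postn. Ibsp levels had to fall by the way the cells were set aside, and the Ibsp ratio went from 3.96 to 1.19. The ratio went from 4.03 to 2.97 for Ifitm5, from 1.26 to 0.69 for Alpl and from 1.42 to 0.44 for Sp7. The ratio turned below 0 for Smpd3 (-0.76), Sgms2 (-0.81) and Pth1r (-0.55), which stood higher over all members at 0.96, 1.35 and 0.69. Without replicate B the edgeR difference over all members was 0.58 for Smpd3, and that of Pth1r was 0.36 and did not pass (adjusted p = 0.0536). Medians of the same ratio over lists went from 0.75 to 0.28 for osteoblast genes, from 0.72 to 0.22 for hypertrophic cartilage genes, from 0.46 to 0.64 for microfibril genes and from 0.81 to 0.996 for collagens.

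Shares of cells with a transcript showed the same split. After each cell was thinned to 3000 UMIs, a Fbn2 UMI was present in 16.6% and 8.79% of the Ibsp-rich members and in 79.9% and 78.9% of the other members. Matched cells were at 63.1% and 54.1%, and immune cells, which should lack fibrillin, at 11.95% and 13.9%. Fbn1 was seen in 7.43% and 6.50% of the Ibsp-rich members, at or below the 7.45% and 10.3% of immune cells, and in 57.7% and 53.7% of the other members. The Fbn1 shares of the Ibsp-rich members, and their Fbn2 share in replicate B, were thus no higher than the background in immune cells. Without thinning, an Ibsp UMI was found in 22.7% and 23.6% of all members, in 22.5% and 22.5% of matched cells and in 17.3% and 23.8% of the 139 and 189 immune cells, which had medians of 21004 and 22173 UMIs. At 3000 UMIs per cell the shares were 15.2% and 17.04% in members, 12.8% and 12.6% in matched cells and 2.99% and 7.50% in immune cells, and 12.4% and 10.95% in the members under the Ibsp limit. The share of cells with an Ibsp UMI thus differed far less between members and matched cells than the summed level did. An Ifitm5 UMI was found in 97.0% and 94.9% of the Ibsp-rich members and in 2.18% and 2.63% of the rest, where matched cells were at 1.38% and 2.35%.

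**Figure D4:**
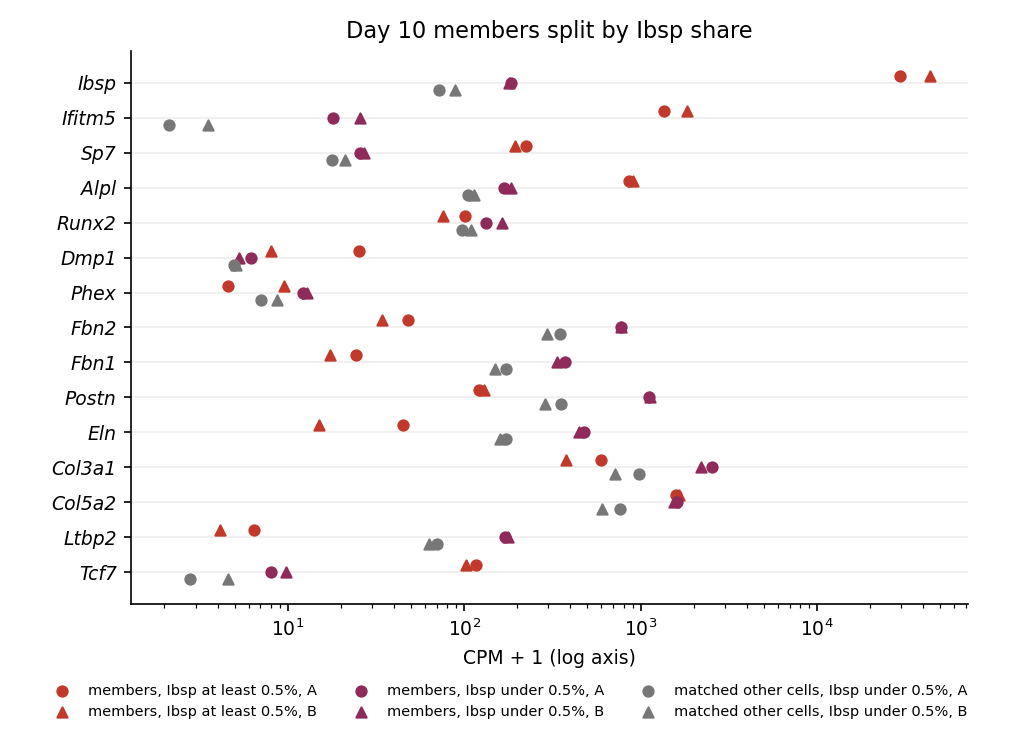
Levels of selected genes (CPM + 1, log axis) at Day 10 in Ibsp-rich members (red), in the other members (purple) and in matched cells under the same Ibsp limit (grey), replicate A as circles and replicate B as triangles. Fbn2 was at 46.9 and 33.4 in the Ibsp-rich members against 774 and 773 in the other members, while Col5a2 was at 1578 and 1642 against 1599 and 1542.

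Across bands of mitochondrial share the members changed in the same sense. In replicate A, Ibsp was at 10526 CPM in members with up to 5% mitochondrial UMIs, 749 from 5 to 10% and 160 from 10 to 20%, while Fbn2 was at 191, 622 and 1077 CPM. In replicate B, Ibsp was at 21601, 1640 and 186 CPM and Fbn2 at 186, 834 and 1038 CPM over these bands. Above 10%, where most members lay, Fbn2 was at 1077, 1007 and 908 CPM over the 3 bands in replicate A and at 1038, 887 and 947 in replicate B. The Fbn2 level was thus higher at a higher mitochondrial share up to the band from 10 to 20% and not beyond it, and the part of the mitochondrial share in the fibrillin level was not tested.

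Cartilage genes were lower in the members without exception, which the Col2a1 limit favours. All 20 tested were lower at Day 10, with a median of -2.50, and all 20 at Day 7, with a median of -2.48. Matn1, encoding a matrilin of cartilage, was at 69.0 and 61.9 CPM in the members against 1295 and 1414 (-4.37). Snorc, a proteoglycan of chondrocytes, was at 44.6 and 56.2 against 505 and 728 (-3.60), Cnmd, the chondromodulin gene, at 22.0 and 25.97 against 257 and 258 (-3.44), and Col9a3 at 146 and 152 against 1236 and 1308. Dlk1, a Notch-related inhibitor of differentiation, was at 33.6 and 56.4 against 249 and 354 (-2.77). Hypertrophic cartilage genes, which overlap with those of bone, had 7 of 10 higher and 2 lower, among them Ihh, the hedgehog ligand of prehypertrophic cells (-2.58), and Panx3 (-1.10), whose sign turned at a mitochondrial share of at most 10% (0.23). Col10a1, the defining collagen of hypertrophic cartilage, did not pass (-0.06).

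Immune genes were lower, 9 of 9. Lyz2 of macrophages was at 1.95 and 6.62 CPM against 64.6 and 50.5 (-3.95), Acp5 of osteoclasts at 7.31 and 6.95 against 33.1 and 163 (-3.42), and Mmp9 at 1.66 and 2.65 against 4.08 and 58.4 (-3.50). Without replicate B the difference was -2.17 for Acp5, and that of Mmp9 did not pass (-1.29, adjusted p = 0.122). The summed level of the list was 11.8 and 35.6 CPM in the members and 99.1 and 222 in the matched cells, higher in the matched cells of both replicates. Skeletal muscle genes were lower in 3 of 6, with summed levels of 7.12 and 6.78 against 48.2 and 22.6 CPM, and endothelial genes in 1 of 2.

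Contractile genes depended on the weighting. Acta2, smooth muscle actin, was at 948 and 922 CPM against 1840 and 1380 (-0.77), and Tagln differed by -0.96. Both lost their call when cells were matched on UMI count too (adjusted p = 0.330 for Acta2 and 0.0903 for Tagln), and as the mean of single cells the log2 ratios were 0.08 and -0.09. Over the list 3 of 14 genes were higher and 7 lower, with a median of -0.33 that turned to 0.33 as means of single cells and was 0.01 without the Ibsp-rich cells. Tendon genes had 6 of 9 higher and none lower, with a median of 0.74. Scx, the factor that specifies tendon, did not pass (0.03), and its log2 ratio as a mean of single cells was 0.67. Articular genes had 4 of 9 higher and 2 lower, surface fibroblast genes 3 of 9 higher and 4 lower, and genes of dividing cells 2 of 15 higher and 6 lower, the last with a median of -0.22 that turned to 0.15 as means of single cells. Mki67, of cycling cells, was at 79.9 and 72.0 CPM against 60.1 and 49.96 (0.46), a sign that turned at a mitochondrial share of at most 10% (-0.19), and it did not pass without replicate B (adjusted p = 0.0511).

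**Figure D5:**
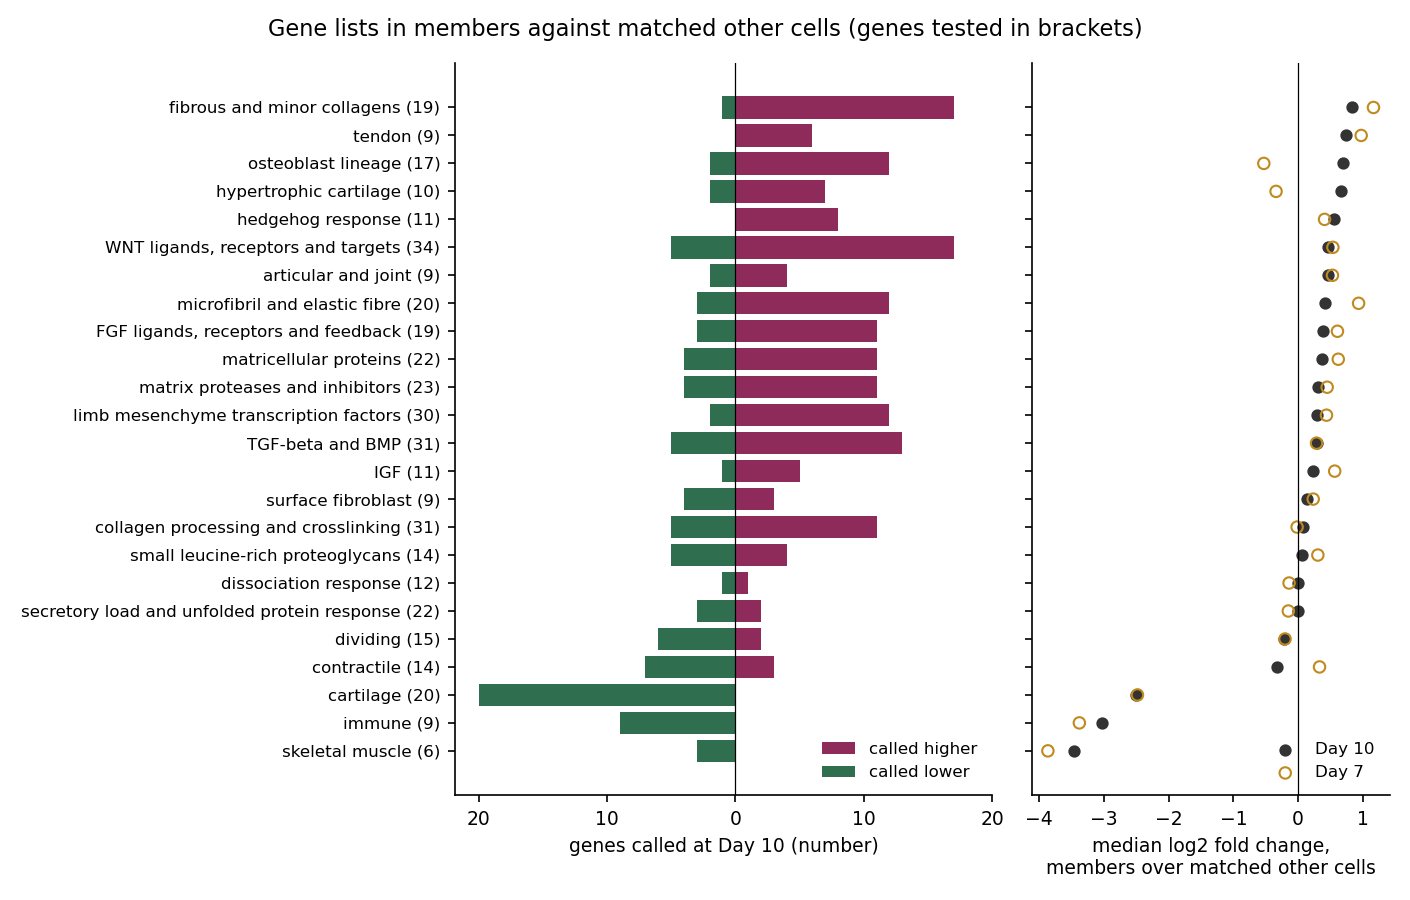
For each gene list, the number of genes called higher or lower in Day 10 members on the left and the median log2 fold change of members over matched cells at Day 7 (open) and Day 10 (filled) on the right. Cartilage genes had a median of -2.48 at Day 7 and -2.50 at Day 10, and the collagen list one of 0.83 at Day 10.

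Signalling lists stood above the median of all genes. Of 11 hedgehog response genes, 8 were higher and none lower, with a median of 0.56, which was 0.32 when levels were means of single cells. A Gli1 or Ptch1 UMI was found in 52.0% and 58.0% of members against 56.1% and 61.5% of matched cells, so that the higher sums did not go with a larger share of cells. Hhip, a decoy receptor that the pathway itself induces, was at 37.6 and 43.5 CPM in the members against 13.3 and 17.7 (1.40). Ptch1, the receptor and a direct target, was at 238 and 306 against 163 and 194 (0.60). As means of single cells the log2 ratios were 0.41 for Hhip, with 0.74 in replicate A and 0.08 in replicate B, 0.01 for Ptch1 and -0.01 for Gli1. Gli1 differed by 0.75, and by 0.40 without replicate A, which did not pass (adjusted p = 0.300), Gli2 by 0.78 and Cdon, a co-receptor, by 0.73. The differences of Hhip and Ptch1 were larger at Day 10 than at Day 7, by 1.29 (adjusted p = 0.00216) and 0.72 (adjusted p = 0.00474).

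WNT genes had 17 of 34 higher and 5 lower, with a median of 0.47. Tcf7 was at 18.5 and 28.3 CPM against 1.98 and 4.84 (2.81). As given above, its level was far higher in the Ibsp-rich members than in the other members. The secreted inhibitors parted, with Dkk3 at 160 and 123 CPM against 61.9 and 54.7 (1.28) higher and Frzb (-1.81) lower. Rspo2, which strengthens WNT signals, was higher (0.79, not passing at a mitochondrial share of at most 10%, adjusted p = 0.473) and the receptor gene Fzd9 lower (-1.53). TGF-beta and BMP genes had 13 of 31 higher and 5 lower, with a median of 0.29. Bmp3, an antagonist of osteogenic BMPs, was at 38.03 and 52.9 CPM against 10.8 and 11.9 (1.99), and Bmp4, a BMP ligand, differed by 0.86. The BMP targets Id1 (-0.71) and Id2 (-0.60) were lower, and Id2 did not pass at a mitochondrial share of at most 10% (adjusted p = 0.0674).

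FGF genes had 11 of 19 higher and 3 lower, with a median of 0.38. The ligand gene Fgf7 was higher (0.84). Fgfr3, the receptor of proliferating cartilage, was at 30.2 and 29.4 CPM against 169 and 161 (-2.47), and Fgfr2, of osteogenic mesenchyme, differed by 0.38 and did not pass without replicate A (adjusted p = 0.135). IGF genes had 5 of 11 higher and 1 lower. Igf1 was at 166 and 173 CPM against 75.6 and 84.6 (1.08), with its binding proteins Igfbp2 (1.01) and Igfbp3 (0.95) higher and Igfbp6 (-0.76) lower, the last not passing when cells were matched on UMI count too (adjusted p = 0.881). Of 30 limb mesenchyme transcription factors, 12 were higher and 2 lower, among the former Tbx18 (0.70) and Foxp2 (0.56). At a mitochondrial share of at most 10%, Tbx18 did not pass (adjusted p = 0.880). Matrix proteases had 11 of 23 higher and 4 lower, with Adamts5 (1.09), an aggrecanase, and Mmp14 (0.67) higher and Ctsk of osteoclasts (-1.12) lower. Without replicate B Ctsk did not pass (-0.38, adjusted p = 0.120).

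Signs of damaged or stressed cells were compared with the matched cells, which had the same distribution of mitochondrial share by design. Of 12 genes of the dissociation response, 1 was higher and 1 lower, with a median of -0.01. Of 4 nuclear RNAs, with a median of -0.36, none was higher and Meg3 (-0.81) and Kcnq1ot1 (-0.48) were lower, and Kcnq1ot1 did not pass without either replicate (adjusted p = 0.0568 without A and 0.0714 without B). As means of single cells all 4, Malat1 and Neat1 included, were lower in the members of both replicates, with a median of -0.60 and with Malat1 at 56194 and 63989 CPM against 70249 and 90642. Against other cells that were not matched on mitochondrial share, Meg3 and Kcnq1ot1 were at 0.25 and 0.79, so that the matching turned their sign. In the unmatched comparisons given below, the nuclear RNAs had 4 of 4 higher than in Tnmd cells (median 1.47) and Prg4 cells (1.41). Against Col2a1 cells 2 were higher and 1 lower. Dissociation genes had 4, 9 and 8 of 12 higher and 3, 0 and 2 lower against Tnmd, Prg4 and Col2a1 cells. Over all genes 29.1%, 31.9% and 33.1% were higher. The part of cell damage was not tested.

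The member difference itself changed between Day 7 and Day 10. By the interaction term, 553 of 13789 genes had a higher difference at Day 10 (4.01%) and 211 a lower one (1.53%), with a median of 0.07 over all genes. The split was 412 and 282 with another scaling (RLE), 136 and 53 with DESeq2, and 1 and 0 in edgeR with no replicate block, so that these calls rest on the library as a block. Ibsp rose most, by 5.92 (adjusted p = 7.86e-05). Its levels at Day 7 were 2.31 and 1.07 CPM in the members and 7.02 and 7.92 in the matched cells, and no Day 7 member reached the Ibsp limit of 0.5%. Smpd3 was at 4.94 and 5.91 CPM in the members at Day 7 against 33.6 and 34.3, and at 192 and 439 against 129 and 187 at Day 10. Bone genes as a list had a median change of 1.23, with 8 of 17 higher and none lower. Col10a1 went the other way (-1.80, and -0.61 without Day 7 replicate B), and microfibril genes had 7 of 20 lower and none higher. Ltbp2 (-0.999, adjusted p = 0.000215), Ltbp1 (-0.70, adjusted p = 0.0036) and Col14a1, a fibril-associated collagen (-0.81, adjusted p = 0.0158), were among those whose difference was smaller at Day 10.

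The leading genes at Day 7 were partly others, while Postn, Snorc and Matn1 led at Day 10 as well. Thbs4 (2.45), Ltbp2 (2.09), Dkk3 (1.97), Postn (1.90) and Lama5, a laminin chain (1.79), had the largest differences above, and Mylpf (-4.28) and Acta1 (-3.70) of muscle and Scrg1 (-4.22), Snorc (-4.09) and Matn1 (-3.93) of cartilage the largest below. Without Day 7 replicate A these were 1.33 for Thbs4, -1.86 for Mylpf and -2.17 for Acta1. None of the bone genes that led at Day 10 was among the former.

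Members of Day 10 were also set against members of Day 7. Of 11720 genes, 769 were higher at Day 10 (6.56%) and 510 lower (4.35%). Ifitm5 had no UMI in the Day 7 members and 1651 and 2475 UMIs at Day 10, at least 399-fold higher when 3 UMIs over both Day 7 libraries are taken as the floor. Ibsp had 7 and 2 UMIs at Day 7 and 34514 and 56982 at Day 10. Slc13a5 (7.21), Smpd3 (5.85) and Sp7 (4.52) followed. Over the osteoblast list 12 of 17 were higher and none lower, with a median of 2.26. The histone genes Hist1h2ap (-3.64), Hist1h4d (-3.16), Hist1h1e and Hist1h2ae (-2.55), expressed as DNA is copied, were lower at Day 10. Gm42418, which overlaps ribosomal RNA and so may count it, was at 117887 and 100858 CPM at Day 7 and at 9178 and 9625 at Day 10 (-3.54), and did not pass without either Day 10 replicate (adjusted p = 0.325 without A and 0.352 without B). Without Day 10 replicate A the difference was -5.75 for Hist1h2ap. No other cells stand beside the members in this comparison, and a difference in it may be shared by the whole culture.

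The members were last compared with the cell sets that the limits on Tnmd, Prg4 and Col2a1 defined, at 1222, 756 and 5518 Day 10 cells. Tnmd and Prg4 cells had median mitochondrial shares between 2.95% and 3.43%, and too few of them had a high share for matching. Of 15002 genes, 4363 were higher in members than in Tnmd cells (29.1%) and 4672 lower (31.1%). Against Prg4 cells 4779 were higher (31.9%) and 4691 lower (31.3%), and against Col2a1 cells 4961 were higher (33.1%) and 5017 lower (33.4%). The depth and mitochondrial share of the members differ from those of these sets, so that values among cells with at most 10% mitochondrial UMIs, called here low mitochondrial share, are given as well.

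Fbn2 was at 598 and 545 CPM in the members in this fit, at 297 and 258 in Tnmd cells, at 252 and 209 in Prg4 cells and at 141 and 121 in Col2a1 cells. The differences were 1.04, 1.31 and 2.13. Among cells with at most 10% mitochondrial UMIs they were 0.20 (adjusted p = 0.118, edgeR), 0.48 (adjusted p = 0.000489) and 1.66. Fbn1 was at 289 and 236 CPM in the members, at 161 and 160 in Tnmd cells and at 194 and 169 in Prg4 cells. Its differences of 0.71 and 0.54 became 0.02 (adjusted p = 0.934) and -0.15 (adjusted p = 0.310) at low mitochondrial share. Of the members with at most 10% mitochondrial UMIs, 31 of 209 in replicate A and 35 of 129 in replicate B were Ibsp-rich. Without the Ibsp-rich cells of each set, the log2 ratio of unscaled CPM at low mitochondrial share was 0.75 for Fbn2 and 0.56 for Fbn1 against Tnmd cells, and 1.07 and 0.43 against Prg4 cells, where with these cells it was 0.24, 0.04, 0.57 and -0.09 in the same order. Over all cells without the Ibsp-rich ones it was 1.499, 1.16, 1.79 and 1.005. The fibrillin ratios were thus lower at low mitochondrial share with or without the Ibsp-rich cells, and no test was made without them.

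The difference of Col1a2 kept its size at low mitochondrial share and that of Col3a1 was smaller. Col1a2 was higher by 1.25, 1.35 and 2.27 against Tnmd, Prg4 and Col2a1 cells, and by 1.22, 1.31 and 2.51 at low mitochondrial share. Col3a1 was higher by 0.97, 1.16 and 2.35, and by 0.57, 0.75 and 2.18. Postn was close between members and Tnmd cells, at 870 and 809 against 717 and 717 CPM (0.23, and -0.13 with adjusted p = 0.334 at low mitochondrial share), and far above Prg4 cells (2.24) and Col2a1 cells (3.27). Eln was at 369 and 313 CPM in the members, 108 and 156 in Tnmd cells, 29.7 and 40.2 in Prg4 cells and 60.7 and 70.0 in Col2a1 cells. Its differences from Tnmd and Prg4 cells were 1.40 and 3.32, and 0.90 and 2.79 at low mitochondrial share. Scx was at 45.7 and 35.2 CPM against 93.8 and 93.1 in Tnmd cells and 114 and 126 in Prg4 cells, with differences of -1.18 and -1.54 (-0.61 and -0.99 at low mitochondrial share), and above the 12.2 and 12.6 CPM of Col2a1 cells. Acta2 was lower than in Tnmd cells (-1.91, and -1.66 at low mitochondrial share) and Prg4 cells (-1.58, and -1.35). Igf1 lay between Tnmd cells (-0.95, and -0.73) and Prg4 cells (1.92, and 2.12).

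The leading genes against each set differed. Above Tnmd cells, Ibsp (7.00), Ifitm5, Slc13a5, Lars2 (3.26) and Sgms2 (3.22) led, and Actg2 (-2.83), a smooth muscle actin, Crabp1 (-2.76), a retinoid carrier, Hist1h1b (-2.58) and Dlk1 (-2.36) were among the lowest. Above Prg4 cells, Ibsp (9.64) led with Ifitm5, Slc13a5, Alpl (4.44) and Smpd3 (4.22), and Mmp3 (-4.08), Ly6a (-3.35), Ass1 (-2.92), Mfap5 (-2.78) and Prkg2 (-2.78) were lowest. Above Col2a1 cells, Ifitm5 (4.34), Postn (3.27), Itgbl1 (3.15), Ibsp (3.12) and Fndc1 (3.10) led, and Cmtm5 (-6.11), Fxyd3, Snorc (-5.93), Matn1 and Scin (-5.44) were lowest. At low mitochondrial share Ibsp differed by 8.13, 10.8 and 4.16 from Tnmd, Prg4 and Col2a1 cells, and Lars2 by 1.37 from Tnmd cells. The other genes named here as leading or lowest kept their sign and passed there. Ratios without the Ibsp-rich cells describe these sets, and that of Ibsp had to be lower by the way the cells were set aside. Ibsp-rich were also 1 of the Tnmd cells, 0 of the Prg4 cells and 82 of the Col2a1 cells. Without the Ibsp-rich cells of each set, the log2 ratio of unscaled CPM for Ibsp went from 7.26 to 2.64 against Tnmd cells, from 9.62 to 4.63 against Prg4 cells and from 3.54 to 0.45 against Col2a1 cells. At low mitochondrial share it was 3.47, 5.48 and 1.25 without them. Among genes that did not define the split, the ratio against Tnmd cells went from 6.37 to 3.13 for Ifitm5, from 4.71 to 2.31 for Slc13a5 and from 3.35 to 1.01 for Sgms2. Against Prg4 cells it went from 4.56 to 3.84 for Alpl and from 4.34 to 2.49 for Smpd3. These genes were thus still above the sets named, by smaller ratios, while the ratio of Lars2 against Tnmd cells went from 3.45 to 3.69. Against Col2a1 cells the ratios of Postn (3.61 to 3.82), Itgbl1 (3.32 to 3.54) and Fndc1 (3.23 to 3.41) did not decrease.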

How the data were processed

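Each deposited matrix held unscaled UMI counts per gene and barcode of 1 library, which the authors made with Cell Ranger 6.1.2 and STAR on GRCm38 (mm10). The matrices held 11518 to 20188 barcodes, which are the cell numbers that the study gives before its own quality filter. All values were whole numbers. The members, gene lists and tests were chosen with earlier results of these data known. Filters and limits were applied as given in the text, and barcodes under 3000 UMIs were left out, where the study used lower minimums. Other cells were drawn to the members' mitochondrial share over 10 quantile bins per library, evenly and with no random draw. UMIs were summed per library and class, with 8 sums at Day 7 and Day 10, from 1767875 to 20769774 UMIs. The sums were tested with edgeR 4.0.16 (R 4.3.3; filterByExpr, TMM, quasi-likelihood F test, library as a block) and adjusted by Benjamini-Hochberg over all genes, with calls at an adjusted p under 0.05. Members of Day 10 and Day 7 were compared without a block. SE is the absolute log2 fold change over the square root of F. The unit is the library, with 2 cultures per time point. The spread was estimated over the sums of both time points and drew on all genes tested. SEs and p-values thus do not measure the spread between the 2 cultures of a time point. The code was tested on simulated counts.

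Genes were named by rule, as the 12 higher and 12 lower genes of largest log2 fold change at Day 10 whose libraries did not overlap, at a mean of at least 50 CPM in the higher class, 5 and 5 for other comparisons, and up to 6 called genes per list of 27 lists at 20 CPM or more. Lists were described by counts and medians. Defining genes that did not pass were added, and Runx2, Spp1, Gli1, Gli2, Pth1r and Col16a1, with Fbn1 and Fbn2 at Day 7 and in the classes, were named after their values had been seen. The Ibsp split, its ratios of unscaled CPM (CPM + 1), the means over single cells and the comparisons of classes at low mitochondrial share were also added after the data had been seen. Shares after thinning are hypergeometric expectations at 3000 UMIs. DESeq2 1.42.0, RLE scaling, other limits, other matching and leaving out each library were tried as alternatives. Imaging and staining were not analysed here, and a few genes that met the rule are not reported here. The names of the genes and their positions follow the GRCm38 annotation.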

Additional observations from a re-analysis of the deposited data

Results flagged for a closer look

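For 9 genes, among those with the largest change in each direction by the rule for named genes, the difference between members and matched cells itself changed from Day 7 to Day 10, by the interaction term of the edgeR quasi-likelihood fit (log2 scale, Benjamini-Hochberg adjusted p, 2 libraries per time point). Bone genes changed upward, Ibsp by 5.92 (adjusted p = 7.86e-05), Smpd3 by 3.58 (adjusted p = 2.39e-05) and Slc13a5 by 3.21 (adjusted p = 0.0268). At Day 10, 72 of the 1613 members held most of the Ibsp UMIs, and no Day 7 member was Ibsp-rich. In the other Day 10 members Smpd3 was, as the mean of both replicates, below matched cells under the same Ibsp limit. The muscle genes Mylpf (4.41, adjusted p = 0.00111) and Myl4 (3.88, adjusted p = 0.00026) changed upward as well. Their levels in the members were low at both time points, with Mylpf at 3.29 and 4.83 CPM at Day 7 and 6.44 and 4.63 at Day 10, while the matched cells were at 117 and 17.2 CPM at Day 7 and at 2.88 and 8.56 at Day 10. The level of Mylpf in the matched cells thus differed more between the time points than that in the members.

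Col10a1 changed downward, by -1.80 (adjusted p = 0.008). It was at 63.6 and 175 CPM in the Day 7 members against 43.2 and 25.7, and at 144 and 85.7 in the Day 10 members against 149 and 91.1. The integrin gene Itga5 changed by -1.15 (adjusted p = 0.000635), the growth factor gene Hbegf by -1.07 (adjusted p = 0.00882) and the histone gene Hist1h1b by -1.06 (adjusted p = 0.0232). None of the 9 passed in the fit without the library block. Without Day 7 replicate A the change was 1.98 for Mylpf, -2.80 for Col10a1 and -1.67 for Hist1h1b, and that of Slc13a5 did not pass (adjusted p = 0.317). Without Day 7 replicate B it was -0.61 for Col10a1, -0.55 for Hbegf and -0.46 for Hist1h1b.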

How the results depend on the processing

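Of 3114 values of named genes under the alternatives, 2870 kept their direction and their side of the threshold, 211 no longer passed, 16 passed only then and 17 changed sign. Day 10 calls, 2001 higher and 2140 lower, became 395 and 644 with DESeq2, 3159 and 5620 without matching, 1091 and 1183 with matching on UMI count too, 1075 and 1299 at a Col1a1 limit of 1.2%, 959 and 945 at a mitochondrial share of at most 10%, and 865 and 741 with no replicate block. Leaving out 1 library each gave 901 to 2572 and 952 to 2806, the lowest without Day 10 replicate A, and Day 10 replicate B left out gave 952 and 1187. Day 7 calls became 846 and 1311 with DESeq2 and 2891 and 4597 without matching, and 1213 to 1693 and 1913 to 2592 with 1 library left out. Interaction calls became 136 and 53 with DESeq2, 837 higher without the low-count filter, 591 lower without matching, and 1 and 0 with no replicate block, where 863 and 474 genes had an unadjusted p under 0.05 in edgeR. They ran from 187 to 924 and 95 to 298 with 1 library left out, the lowest without Day 10 replicate B and the most higher calls without Day 7 replicate B. Calls between members of Day 10 and Day 7 became 363 and 207 with DESeq2, 1759 and 782 without the filter, 247 to 1676 and 180 to 837 with 1 library left out, by the same libraries, and 1095 and 643 with the replicate letter as a block. No label says that a letter pairs cultures, and 2 pairs cannot show whether it does (correlation 0.0445 over members and 0.134 over other cells). Against Tnmd cells the calls were 2195 and 2340 at low mitochondrial share and 2814 to 4518 and 3528 to 4811 with 1 library left out (2814 without Day 10 replicate A). Against Prg4 cells they were 2693 and 2998, and 3243 to 4848 and 3708 to 4777. Against Col2a1 cells they were 3264 and 3237 with matching, 3313 lower at low mitochondrial share, and 3469 to 5103 and 3818 to 5183. The causes were not tested.

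The share of members in Day 10 replicates A and B was 2.91% and 1.81% at a mitochondrial share of at most 10%, 19.9% and 13.5% at a Col1a1 limit of 0.5%, 6.58% and 3.24% at 1.2%, and 8.47% and 4.52% with 2 Thbs2 UMIs. At Day 7 these were 1.01% and 0.728%, 6.58% and 4.36%, 1.91% and 0.739%, and 2.73% and 1.18%, with 2.39% and 1.13% at a minimum of 800 UMIs. At Day 2 replicate A was at 0.0227%, 0% at 1.2% Col1a1 and 0.0223% with 2 Thbs2 UMIs, and replicate B at 0% for the mitochondrial limit and for 1.2% Col1a1. Signs changed at Day 10 without matching for Col16a1 (0.28), Gas1 (-0.12), Igfbp4 (-0.022), Kcnq1ot1 (0.79), Meg3 (0.25), Ptgis (-0.030) and Spry1 (-0.039). They changed at low mitochondrial share for Col16a1 (0.064), Kcnq1ot1 (0.022), Mki67 (-0.19), Panx3 (0.23) and Thbs4 (-0.37), at a Col1a1 limit of 0.5% for Thbs4 (-0.046) and Thy1 (-0.012), with matching on UMI count for Stmn2 (0.82), and with 1 library left out for Des (-2.24 to 0.059, above 0 without Day 10 replicate A) and Thbs4 (-0.056 to 1.76, below 0 without Day 10 replicate B). Most members were shallow, so that levels of low transcripts rest on sums and not on single cells.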
